A study of Mus musculus with 6 samples.

Results

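The keratins followed here were the luminal and basal keratins of the mammary epithelium, namely *Krt7*, *Krt8*, *Krt18* and *Krt19* (luminal), *Krt5*, *Krt14*, *Krt15* and *Krt17* (basal), and *Krt4* and *Krt80*, which mark neither layer. They were chosen by gene name, and all 10 had a value among the 17428 genes of the table, which held 33 keratins in all. RNA was sequenced from EpH4, a mouse mammary epithelial cell line, as 2 biological replicates in each of 3 states. E cells were grown in the normal medium, M cells had received transforming growth factor β1 (TGFβ1) for 7 days, and RE cells had received TGFβ1 for 7 days and then normal medium for another 4 days. The comparisons E vs. M, M vs. RE and E vs. RE ask what TGFβ1 changed, what changed once it was withdrawn, and what still differed from the starting cells.

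Keratins are the intermediate filament proteins of epithelial cells. A filament is built from pairs of a type I keratin (here *Krt14*, *Krt15*, *Krt17*, *Krt18* and *Krt19*) and a type II keratin (*Krt4*, *Krt5*, *Krt7*, *Krt8* and *Krt80*), and filaments are tied to cell junctions by plakins and plakophilins. In the mammary gland, KRT8 pairs with KRT18 in the luminal layer and KRT5 with KRT14 in the basal layer, and loss of keratins in exchange for vimentin is a textbook feature of epithelial to mesenchymal transition.

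The deposited values are coverage (the sum of sequenced bases over a gene) and are given here as normalized coverage in ppm of the library after TMM scaling. The libraries held between 35782513 and 47928557 reads' worth of 50 bases. Coverage up to 3 reads' worth (0.0635 to 0.0781 ppm in the 6 libraries) was taken as the floor, and this floor speaks for counting error alone. Replicates differed more among E cells than elsewhere, with an SD over genes of their log2 difference of 0.558 for E, 0.318 for M and 0.309 for RE. Log2 fold changes, standard errors (SE) and Benjamini-Hochberg adjusted p-values are from limma on log2(ppm + 0.1), a scale that understates changes at low coverage. A gene was called when its log2 fold change was above 1 either way and its adjusted p was below 0.01. In such bulk samples, fewer cells of a type and less RNA per cell cannot be told apart.

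The keratins did not fall as a group in the M cells, but all 5 abundant ones fell from the M to the RE cells. Of these falls 4 were called, and that of *Krt18* (log2 fold change −0.97) was just under the fold threshold. In E vs. M, 2 of the 9 keratins tested were called higher (*Krt14* and *Krt17*) and 1 lower (*Krt15*), where 17% of all 13893 genes tested were called, 8.58% higher and 8.39% lower. In M vs. RE, 5 were called lower (*Krt7*, *Krt8*, *Krt14*, *Krt17* and *Krt80*) and 1 higher (*Krt15*), where 12.9% of all genes were called, 4.79% lower and 8.08% higher. In E vs. RE, 3 were called lower (*Krt7*, *Krt18* and *Krt80*), where 9.37% of all genes were called, 3.17% lower and 6.2% higher. No keratin was called higher by limma in E vs. RE, although 2 were higher at an unadjusted p under 0.05 (*Krt5* and *Krt15*). The median log2 fold change of the 9 keratins was −0.18, −1.10 and −0.30 in the 3 comparisons in this order, beside 0.00, −0.02 and 0.01 over all genes tested. The libraries of the groups did not overlap for 7, 9 and 7 of the 9 keratins in the same order, beside 70.6%, 78.1% and 66.7% of all genes tested. *Krt19* did not reach the 500 bases in 2 libraries needed for the test, and *Krt5* passed this filter through its coverage in the RE cells alone. *Krt4* would not have passed it without the RE cells, where it was highest.

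**Figure D1:**
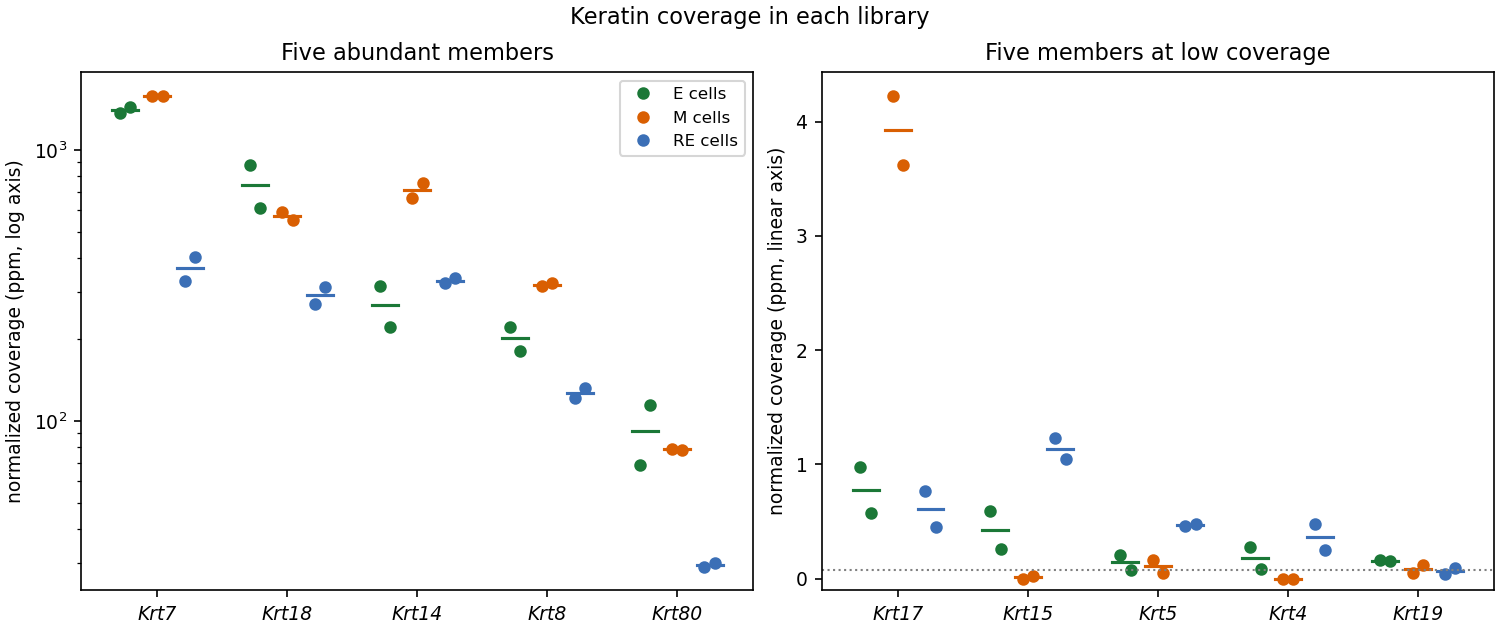
Normalized coverage (ppm) of the 10 keratins in each library, on a log axis for the 5 abundant keratins and on a linear axis for the 5 at low coverage. Points are libraries, bars are group means and the dotted line is the highest floor (0.0781 ppm). For *Krt7*, *Krt18*, *Krt8* and *Krt80* both RE libraries sit below all E and M libraries, and *Krt14* and *Krt17* are highest in the M cells.

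The luminal keratins *Krt7*, *Krt8* and *Krt18* were high in the M cells and lowest in the RE cells. *Krt8* and *Krt18* are neighbours in the gene order of chromosome 15, where *Krt18* is the only type I gene among the type II members, and *Krt7* lies next to *Krt80* in the same cluster. The 250 bases upstream of their start sites are shown because these 3 genes were all lowest in the RE cells, with that of *Krt14*, which rose in the M cells, for comparison. They are from RefSeq promoter windows (GRCm38.p6), at chr15:101412153-101412402 on the plus strand for *Krt7*, chr15:102004343-102004592 on the minus strand for *Krt8*, chr15:102027966-102028215 on the plus strand for *Krt18* and chr11:100206031-100206280 on the minus strand for *Krt14*. Each is written 5′ to 3′ and ends at the base before the start site, and capitals mark a GC box (GGGCGG on either strand) or an E2 box (CAGGTG on either strand).
Krt7: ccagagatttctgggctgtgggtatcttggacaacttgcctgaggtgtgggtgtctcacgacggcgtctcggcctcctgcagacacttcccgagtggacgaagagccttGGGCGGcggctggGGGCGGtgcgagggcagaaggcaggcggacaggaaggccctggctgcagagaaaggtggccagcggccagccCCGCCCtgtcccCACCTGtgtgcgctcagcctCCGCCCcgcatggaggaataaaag
Krt8: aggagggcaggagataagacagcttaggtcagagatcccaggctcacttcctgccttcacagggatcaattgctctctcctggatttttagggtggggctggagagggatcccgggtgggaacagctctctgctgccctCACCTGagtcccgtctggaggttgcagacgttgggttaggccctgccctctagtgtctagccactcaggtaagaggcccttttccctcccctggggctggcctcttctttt
Krt18: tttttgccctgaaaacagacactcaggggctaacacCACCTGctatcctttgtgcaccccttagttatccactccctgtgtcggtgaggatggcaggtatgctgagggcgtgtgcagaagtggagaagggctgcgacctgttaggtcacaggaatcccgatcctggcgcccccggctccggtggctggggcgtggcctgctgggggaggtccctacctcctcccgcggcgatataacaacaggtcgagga
Krt14: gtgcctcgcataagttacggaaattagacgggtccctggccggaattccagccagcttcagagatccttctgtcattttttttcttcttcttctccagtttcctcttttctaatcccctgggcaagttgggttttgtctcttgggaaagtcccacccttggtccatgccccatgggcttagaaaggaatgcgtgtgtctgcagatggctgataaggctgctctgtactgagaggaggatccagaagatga
The GC box, a site known to bind SP1, occurred 4 times in the *Krt7* window and in none of the other windows matched, and 32.7% of 32851 mouse promoter windows of the same length held it. The E2 box, a site known to bind SNAI and ZEB repressors, was found in the windows of *Krt7*, *Krt8*, *Krt18* and *Krt5* but not in that of *Krt14*, and in 17.2% of all windows. Unlike the other keratins with this box, *Krt5* was highest in the RE cells, and *Krt80*, also lowest there, had no window matched. An AP-1 site, searched as TGANTCA, was found in none of the 5 windows and in 6.75% of all windows. The TATA box, searched with the letters TATAAA, was also in none of the 5 and in 12.4% of all. A Grainyhead site, searched as AACNNGTT, was likewise in none of the 5 and in 3.64% of all. Every motif was searched on both strands, none of the marked matches overlap, and a match is a description of the letters and not of a bound site. Windows were matched for 5 of the 10 keratins.

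*Krt7* encodes a type II keratin of simple and ductal epithelia and had the highest coverage of the 10. Its normalized coverage was 1372 and 1446 ppm in the E libraries, 1586 and 1583 ppm in the M libraries and 328 and 404 ppm in the RE libraries. Both RE libraries lay far below the other 4, while the E and M libraries stood close together without overlapping. E vs. M, at 1409 ± 52.8 against 1585 ± 2.17 ppm (mean ± SD, n = 2), was not called (log2 fold change 0.17, SE 0.16, adjusted p = 0.416 by limma), and the sign turned with scaling by library totals (−0.13). In the RE cells *Krt7* fell 4.33-fold from the M cells to 366 ± 53.9 ppm (log2 fold change −2.12, SE 0.16, adjusted p = 8.08e-05 by limma). It was also 3.85-fold below the level of E cells (log2 fold change −1.95, SE 0.16, adjusted p = 0.000418 by limma), a call lost without the first RE library (−1.80, adjusted p = 0.0141 by limma). The fall from M to RE was called under each of the alternatives run.

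*Krt8*, the type II partner of *Krt18*, was at 223 and 181 ppm in the E libraries, at 315 and 323 ppm in the M libraries and at 122 and 133 ppm in the RE libraries. The 3 groups did not overlap, with the M cells highest and the RE cells lowest. *Krt8* was 1.58-fold higher in the M cells than in the E cells, which was below the fold threshold (log2 fold change 0.67, SE 0.15, adjusted p = 0.00919 by limma). It then fell 2.50-fold in the RE cells (log2 fold change −1.32, SE 0.15, adjusted p = 0.000529 by limma). This call was lost by limma without the first M library (adjusted p = 0.0107), the second M library (adjusted p = 0.0114) or the first RE library (adjusted p = 0.0143). Against the E cells, the RE cells were 1.58-fold lower, which was not called (log2 fold change −0.66, 95% confidence interval −0.997 to −0.318, adjusted p = 0.0144 by limma). Of the 50-base stretches of the longest *Krt8* transcript, 29.7% also occur in another gene's transcript (*Krt8-ps* and Gm36026), so that its coverage may be shared with these copies.

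*Krt18*, the type I partner of *Krt8*, was at 880 and 611 ppm in the E libraries, 589 and 550 ppm in the M libraries and 270 and 312 ppm in the RE libraries. The RE libraries were the lowest, and the second E library was close to the M libraries although the groups did not overlap. From the E to the M cells the log2 fold change was −0.37 (SE 0.19, adjusted p = 0.167 by limma). From the M to the RE cells it was −0.97 (SE 0.19, adjusted p = 0.00821 by limma), just under the fold threshold, and −1.01 once GC and length trends were taken out, where it was called (adjusted p = 0.000856). In E vs. RE *Krt18* fell 2.56-fold (log2 fold change −1.34, SE 0.19, adjusted p = 0.00305 by limma). This call was lost by limma in a fit of the E and RE libraries alone (adjusted p = 0.0153), without the first or second M library (adjusted p = 0.0116 and 0.0115) and without the first or second RE library (adjusted p = 0.0529 and 0.0274).

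*Krt19*, a type I luminal keratin that lacks the tail domain of other keratins, was close to the floor throughout. It had 349 and 300 bases in the E libraries, 100 and 250 in the M libraries and 100 and 200 in the RE libraries, which is 0.162, 0.156, 0.0479, 0.121, 0.0423 and 0.0910 ppm. Both E libraries were above the others. *Krt19* was left out by the filter on low coverage, and in a fit without this filter it was not called, with log2 differences of −0.52 from E to M, −0.13 from M to RE and −0.65 from E to RE cells (adjusted p = 0.22, 0.784 and 0.158 by limma). Of the 4 luminal keratins, 3 were tested. None was called in E vs. M, with 1 higher at an unadjusted p under 0.05 (*Krt8*), while 2 were called lower in M vs. RE and 2 lower in E vs. RE by limma and none higher, also not at an unadjusted p under 0.05.

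The basal keratins did not move together. *Krt14*, the type I keratin of the basal layer, was at 315 and 223 ppm in the E libraries, 666 and 755 ppm in the M libraries and 324 and 336 ppm in the RE libraries. Both M libraries stood above the other 4, and the E and RE libraries were near each other without overlapping. *Krt14* rose 2.64-fold from 269 ± 64.7 ppm in E to 711 ± 62.6 ppm in M cells (SD, n = 2), with a log2 fold change of 1.42 (SE 0.18, adjusted p = 0.00094 by limma). It fell 2.16-fold to 330 ± 8.80 ppm in the RE cells (log2 fold change −1.10, SE 0.18, adjusted p = 0.00364 by limma). Between the E and RE cells the log2 difference was 0.31 (95% confidence interval −0.11 to 0.74, adjusted p = 0.228 by limma). The rise was not called by limma without the first M library (adjusted p = 0.0103) or the second (adjusted p = 0.0153). The fall was not called without the first or second M library (adjusted p = 0.0282 and 0.0447 by limma) or the first or second RE library (adjusted p = 0.0496 and 0.0365), nor with scaling by library totals (−0.90, adjusted p = 0.0121). Of its 50-base stretches, 14.4% occur also in *Krt16* or *Krt17*.

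*Krt17*, a type I keratin known to be induced in stressed and wounded epithelia, had the same shape at a far lower level. It was at 0.980 and 0.576 ppm in the E libraries, 4.22 and 3.62 ppm in the M libraries and 0.764 and 0.455 ppm in the RE libraries. The M libraries stood alone at the top, and the E and RE libraries overlapped. *Krt17* rose 5.04-fold from E to M cells (log2 fold change 2.23, SE 0.34, adjusted p = 0.0019 by limma) and fell 6.43-fold in the RE cells (−2.53, SE 0.34, adjusted p = 0.00135 by limma). For E vs. RE the log2 difference was −0.30 (95% confidence interval −1.09 to 0.49, adjusted p = 0.529 by limma). The rise was lost by limma without the first or second M library (adjusted p = 0.0257 and 0.0181). The fall was lost without either of these (adjusted p = 0.0209 and 0.0147 by limma) or without the second RE library (adjusted p = 0.0154). Of its 50-base stretches, 3.99% also occur in other keratins, the far more abundant *Krt14* among them, and their part in these values was not tested.

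*Krt15*, a type I basal keratin also known from epithelial progenitors, moved the other way. It was at 0.592 and 0.260 ppm in the E libraries, 0 and 0.0243 ppm in the M libraries and 1.23 and 1.04 ppm in the RE libraries. The M libraries were at the floor, and the RE libraries were the highest of all, above both E libraries. Against the floor, the E cells had at least 5.89-fold and the RE cells at least 15.7-fold higher coverage than the M cells. The second E library alone gives at least 3.60-fold, and the second RE library alone at least 14.4-fold. Limma called both differences, with an adjusted p of 0.00476 between E and M cells and of 0.00071 between M and RE cells. The log2 difference of 1.31 in E vs. RE (SE 0.40, adjusted p = 0.0454 by limma) was called without the first E library (1.77, adjusted p = 0.00736). The E vs. M call was lost by limma with a pseudocount of 1 ppm (adjusted p = 0.0295), in a fit of the E and M libraries alone (0.0177), with array weights (0.0127), without the first or second M library (0.0409 and 0.0259) and without the first or second RE library (0.0159 and 0.0154). That of M vs. RE was lost without the first RE library (adjusted p = 0.0138).

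*Krt5*, the type II partner of *Krt14*, was near the floor where *Krt14* was abundant. It was at 0.208 and 0.0781 ppm in the E libraries, 0.168 and 0.0476 ppm in the M libraries and 0.466 and 0.478 ppm in the RE libraries. The E and M libraries overlapped and both RE libraries lay above them, at 1100 and 1050 bases. The log2 difference was 1.52 in M vs. RE (SE 0.45, adjusted p = 0.0368 by limma) and 1.29 in E vs. RE (SE 0.45, adjusted p = 0.0653), and neither was called. *Krt5* passed the filter only through the RE cells, where it was highest, so that these values are a description. Of its 50-base stretches, 12.2% also occur in transcripts of *Krt6a*, *Krt6b* or other genes, and *Krt6a* and *Krt6b* had mean coverage of 0.417 and 0.424 ppm in the RE cells and of 0.175 and 0.0579 ppm in E cells. The part of shared reads in these values was not tested. Of the 4 basal keratins, 2 were called higher and 1 lower in E vs. M, 1 higher and 2 lower in M vs. RE, and none in E vs. RE by limma, with 2 higher (*Krt15*, and *Krt5* with the limit above) and 0 lower there at an unadjusted p under 0.05.

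*Krt80* and *Krt4* are type II keratins outside the luminal and basal pairs. *Krt80*, a keratin known from many epithelia where it lies near desmosomes, was at 68.9 and 115 ppm in the E libraries, 78.9 and 78.4 ppm in the M libraries and 29.0 and 29.8 ppm in the RE libraries. Both M libraries lay between the E libraries, and the RE libraries were below all others. *Krt80* fell 2.67-fold in M vs. RE (log2 fold change −1.42, SE 0.23, adjusted p = 0.00297 by limma) and 3.13-fold in E vs. RE (−1.59, SE 0.23, adjusted p = 0.00277 by limma). The M vs. RE call was lost by limma without any 1 of the M or RE libraries (adjusted p = 0.033 and 0.0299 without the first and second M library, and 0.0356 and 0.0282 without the first and second RE library). The E vs. RE call was lost in a fit of the E and RE libraries alone (adjusted p = 0.0147 by limma), without the first or second M library (0.0107 and 0.0106) and without the first or second RE library (0.0403 and 0.0284).

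*Krt4*, a keratin of stratified mucosal epithelia, was at 0.274 and 0.0880 ppm in the E libraries, 0 ppm in both M libraries and 0.478 and 0.250 ppm in the RE libraries. It was the only keratin of the 10 without a single base in both M libraries. Against the floor, its coverage was at least 2.50-fold higher in the E cells and at least 5.03-fold higher in the RE cells than in the M cells. The first of these bounds rests on the first E library, since the second alone gives at least 1.22-fold. For the RE cells, the second library alone gives at least 3.46-fold. *Krt4* had 593 and 169 bases in the E libraries and 1129 and 550 in the RE libraries. It would not have passed the filter without the RE cells, where it was highest, so that its adjusted p-values and calls below are a description. The M vs. RE difference was not called (adjusted p = 0.012 by limma), and was called without the first or second E library (adjusted p = 0.00165 and 0.000948), with a pseudocount of 0.025 ppm (0.00588), in a fit of the M and RE libraries alone (0.00122), with array weights (0.000335) and with GC and length trends taken out (0.00805). The E vs. M difference (adjusted p = 0.0474 by limma) was called without the second E library (adjusted p = 0.00857).

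**Figure D2:**
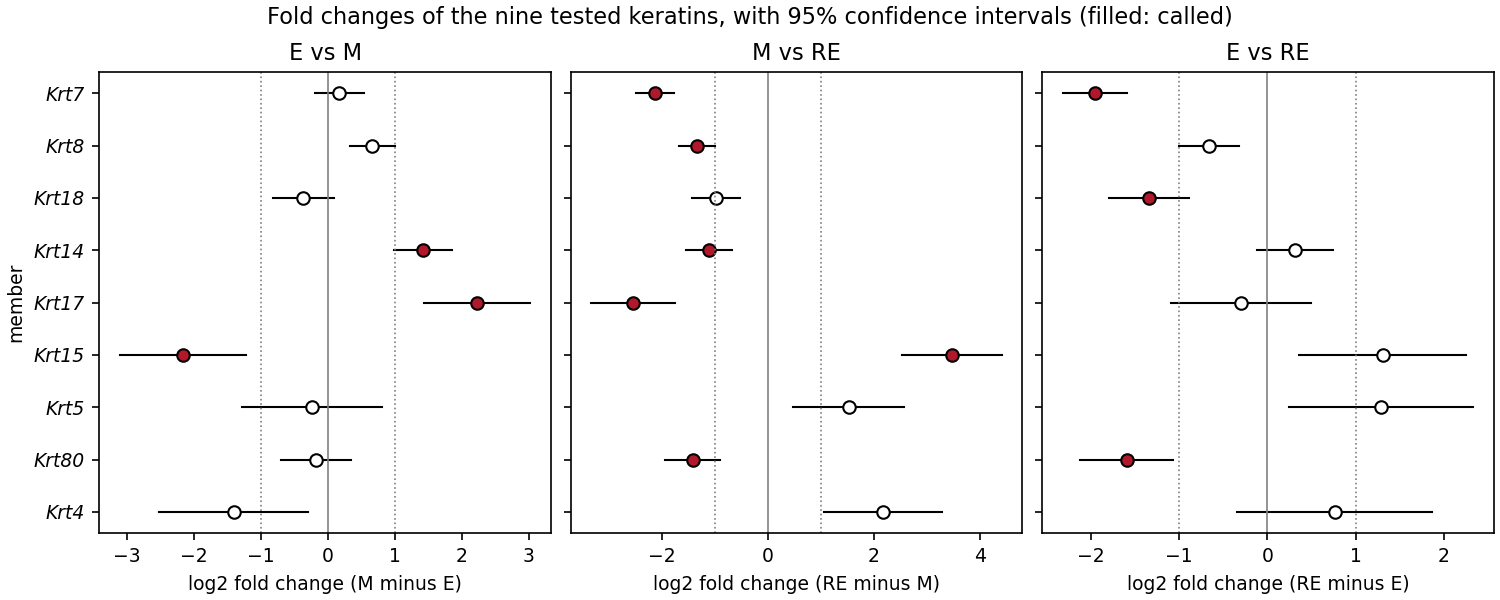
Log2 fold changes of the 9 keratins tested (points) with 95% confidence intervals (lines) in E vs. M, M vs. RE and E vs. RE, where positive values mean higher in the second-named cells. Filled points were called, and dotted lines mark a log2 fold change of 1 either way. *Krt14* and *Krt17* are filled on the right in E vs. M and on the left in M vs. RE, and *Krt15* has the opposite sign in both.

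Together the 10 keratins took up less of the library in the RE cells than in the others. Their summed coverage was 2860 and 2578 ppm in the E libraries, 3239 and 3293 ppm in the M libraries and 1075 and 1217 ppm in the RE libraries. This was 0.258% to 0.286% of the normalized library for E, 0.324% to 0.329% for M and 0.108% to 0.122% for RE cells, and the groups did not overlap. The log2 difference was 0.27 between E and M, −1.51 between M and RE and −1.25 between E and RE cells. Each of these had an exact permutation p of 0.333 (two-sided, n = 2 per group), the smallest that 2 against 2 libraries can give (adjusted p = 0.375 over 18 tests). The E vs. M difference turned to −0.03 with scaling by library totals. Without *Krt7* the differences were 0.37, −1.11 and −0.74.

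To compare keratins with each other, coverage was divided by the length of the longest transcript. On this scale *Krt18* was the leading keratin of the E cells with 44.8% of the coverage of the 10, followed by *Krt7* with 30.3%, *Krt14* with 13.7%, *Krt8* with 8.97% and *Krt80* with 2.12%. In the M cells *Krt14* (28.6% to 31.7% in the 2 libraries), *Krt18* (27.3% to 29.8%) and *Krt7* (27.6% to 28.2%) were close, and their ranges overlapped. In the RE cells *Krt18* (35.5% to 36.8%) and *Krt14* (33.5% to 36.0%) overlapped, and *Krt7* held 15.9%. This order depends on the length used, since the longest *Krt7* transcript has 4094 bp and its coding sequence 1371 bp. Per coding length *Krt7* led in all 3 states, with 51.4%, 48.7% and 31.9% in E, M and RE cells. Among the 15687 genes with a length, *Krt18* ranked 20, 51 and 106 in E, M and RE cells by mean coverage per length, and *Krt14* ranked 194, 44 and 119.

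**Figure D3:**
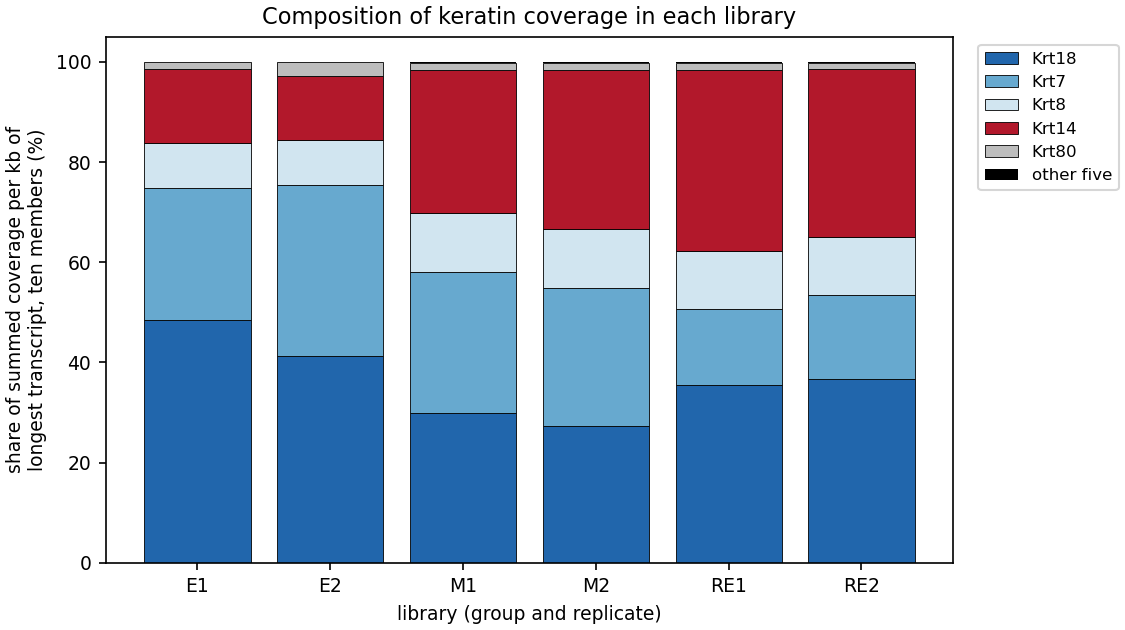
Share of each keratin in the summed coverage per kb of longest transcript of the 10 keratins (%), stacked for each library. *Krt14* takes 13.7%, 30.2% and 34.7% on average in E, M and RE cells, and *Krt7* falls to a share of 15.9% in the RE libraries.

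Ratios within a library do not depend on scaling. The basal to luminal ratio per length was 0.176 and 0.152 in the E libraries, 0.413 and 0.479 in the M libraries and 0.581 and 0.519 in the RE libraries. *Krt14* made up 99.3% to 99.6% of the basal coverage per length in each library, so that this is in effect a ratio of *Krt14* to the luminal keratins. The E libraries were lowest and the RE libraries highest, without overlap. The log2 difference was 1.45 between E and M, 0.31 between M and RE and 1.75 between E and RE cells, each with an exact permutation p of 0.333. The M vs. RE value was 0.74 with the median transcript length and 0.54 with the coding length.

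The balance of type I and type II keratins per length was 1.71 and 1.17 in the E libraries, 1.42 and 1.45 in the M libraries and 2.53 and 2.39 in the RE libraries. The E and M libraries overlapped, and both RE libraries were higher, with log2 differences of 0.78 from M and 0.79 from E cells (exact permutation p = 0.333 each, n = 2 per group). The *Krt8* to *Krt18* ratio was 0.186 and 0.217 in the E libraries, 0.392 and 0.431 in the M libraries and 0.331 and 0.312 in the RE libraries. It was 2.04-fold higher in M than in E cells, and the RE libraries lay between the E and M libraries. The *Krt14* to *Krt18* ratio was 0.303 and 0.309 in the E libraries, 0.958 and 1.16 in the M libraries and 1.01 and 0.911 in the RE libraries. The M and RE libraries overlapped in this ratio (exact permutation p = 0.667), and all 4 were above the E libraries.

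**Figure D4:**
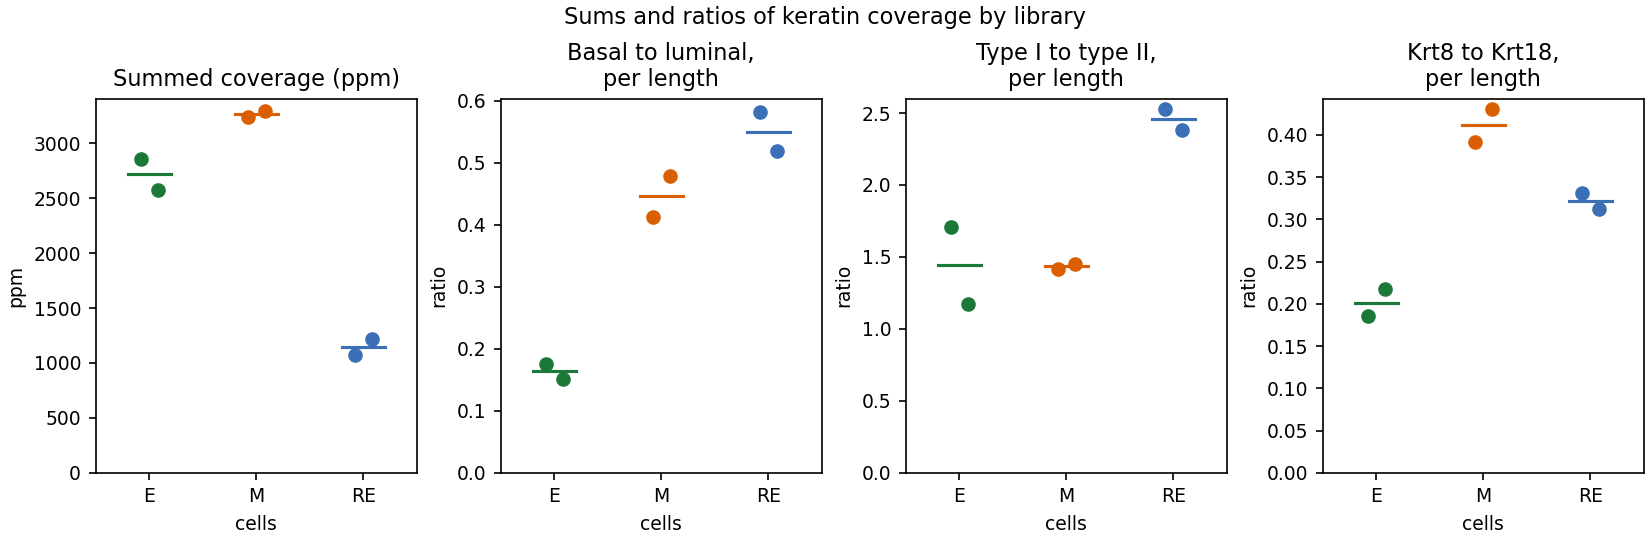
Summed coverage of the 10 keratins (ppm) and 3 ratios of coverage per length of longest transcript, by library (points) with group means (bars), on axes that start at 0. The sum is lowest in the RE cells (1075 and 1217 ppm), while the basal to luminal ratio is highest there (0.581 and 0.519).

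Of the other 23 keratins in the table, 8 had enough coverage to be tested. *Krt79*, a type II keratin of hair follicle and gland ducts, was called higher in the RE cells. It was at 0.846 and 0.286 ppm in the E libraries, 0.288 and 0.242 ppm in the M libraries and 6.76 and 4.28 ppm in the RE libraries, 3.91 above the M cells (adjusted p = 0.000657 by limma) and 3.18 above the E cells (adjusted p = 0.00277) on the log2 scale. *Krt83*, a hair keratin, was called lower in both, from 7.42 and 13.8 ppm in the E libraries and 11.0 and 12.9 ppm in the M libraries to 2.93 and 3.20 ppm in the RE libraries. Of its 50-base stretches, 23.2% also occur in *Krt81*, *Krt86* or *Krt87*. *Krt10*, the type I keratin of differentiated epidermis, fell 2.52-fold from E to M cells (−1.27 on the log2 scale, adjusted p = 0.00344 by limma). *Krt73* had 200 bases in each E library, 910 and 1447 in the M libraries and 50 in each RE library. It passed the filter through the M cells alone, where it was highest, so that its calls (higher in E vs. M and lower in M vs. RE) are a description. Against the floor of the RE cells, its coverage in M cells was at least 8.64-fold higher.

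Transcripts of keratin linkers and associated proteins changed in both directions in the M cells. Of 18 genes listed, 15 were in the table and were tested, and 3 were called higher and 3 lower in E vs. M. *Ppl*, a plakin that binds keratin, fell from 170 and 203 ppm in the E libraries to 6.25 and 9.09 ppm in the M libraries (−4.60 on the log2 scale, adjusted p = 9.79e-06 by limma), and was at 137 and 131 ppm in the RE libraries (4.14, adjusted p = 1.43e-05 in M vs. RE). *Evpl*, its partner in the cornified envelope, also fell (−1.71, adjusted p = 0.000173 by limma). The desmosomal plakophilins *Pkp1* (2.03) and *Pkp2* (1.68) rose in E vs. M with adjusted p-values of 0.000483 and 6.6e-05 by limma, and fell again in M vs. RE (−1.68 and −1.71). In M vs. RE, 2 of the list were called higher and 3 lower, the third being *Jup* (−1.03). In E vs. RE, *Krtcap2*, a keratinocyte-associated protein gene that is no filament linker, was the only one called (−1.63, adjusted p = 0.000481 by limma), and none was called higher, with 2 higher at an unadjusted p under 0.05. The median log2 fold change of the list was −0.18, −0.21 and −0.03, beside 0.00, −0.02 and 0.01 over all genes. Of all genes tested, 8.58% were called higher and 8.39% lower in E vs. M. The shares were 8.08% and 4.79% in M vs. RE and 6.2% and 3.17% in E vs. RE.

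*Vim*, the intermediate filament gene of mesenchymal cells, was called in all 3 comparisons. It was at 6.52 and 3.16 ppm in the E libraries, 86.4 and 70.9 ppm in the M libraries and 21.6 and 24.3 ppm in the RE libraries. The groups did not overlap, and the RE libraries lay between the others. It rose by 4.08 on the log2 scale from E to M cells (adjusted p = 7.93e-05 by limma) and changed by −1.77 from M to RE cells (adjusted p = 0.00452), which left the RE cells 2.31 above the E cells (adjusted p = 0.0022). The neurofilament gene *Nefh* fell from E to M cells (−1.58, adjusted p = 0.000352 by limma). Of the 9 other intermediate filament genes tested, of 15 listed and 13 in the table, E vs. M called 2 higher and 1 lower, M vs. RE called 0 higher and 2 lower, and E vs. RE called 1 higher and 0 lower by limma. At an unadjusted p under 0.05, 1 was higher in M vs. RE and 4 were lower in E vs. RE. The median log2 fold change was 0.70, −0.52 and −0.41, and the shares of all genes called are those given with the linkers.

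Many transcription factors of the epithelial lineage and of keratin genes were lower in the M cells than in the E and RE cells. Of 22 listed, 19 were tested, with 9 called lower and 1 higher in E vs. M, 11 higher and 1 lower in M vs. RE and 2 higher in E vs. RE. None was called lower in E vs. RE by limma, with 2 lower at an unadjusted p under 0.05. The median log2 fold change was −1.34, 1.55 and 0.23. Over all genes tested, 8.39% were called lower and 8.58% higher in E vs. M, 8.08% higher and 4.79% lower in M vs. RE, and 6.2% higher in E vs. RE. The largest changes in E vs. M, among factors whose mean log2 value was 2 or more, were those of *Grhl1* (−3.59, adjusted p = 2.29e-05 by limma), *Klf4* (−2.74), *Elf3* (−2.70) and *Ovol1* (−2.04). In M vs. RE *Grhl1* (3.82), *Grhl3* (2.89), *Klf4* (2.89) and *Ovol1* (2.72) rose. *Trp63*, the master factor of the basal layer and an activator of *Krt5* and *Krt14*, was at 59.0 and 81.7 ppm in the E libraries, 44.7 and 54.9 ppm in the M libraries and 173 and 158 ppm in the RE libraries, and was called higher in E vs. RE (1.25, adjusted p = 0.00346 by limma), as was *Sox9* (1.08, adjusted p = 0.0024). The single factor called higher in E vs. M was *Elf5*, a luminal progenitor factor, at 0.0463 and 0.0812 ppm in the E libraries and 2.90 and 2.88 ppm in the M libraries. It was named after its values were seen. *Elf5* was also the single factor called lower in M vs. RE. The first E library was below the floor and *Elf5* passed the filter through the M cells, where it was highest. No fold is therefore given, and its calls, counted above, are a description.

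**Figure D5:**
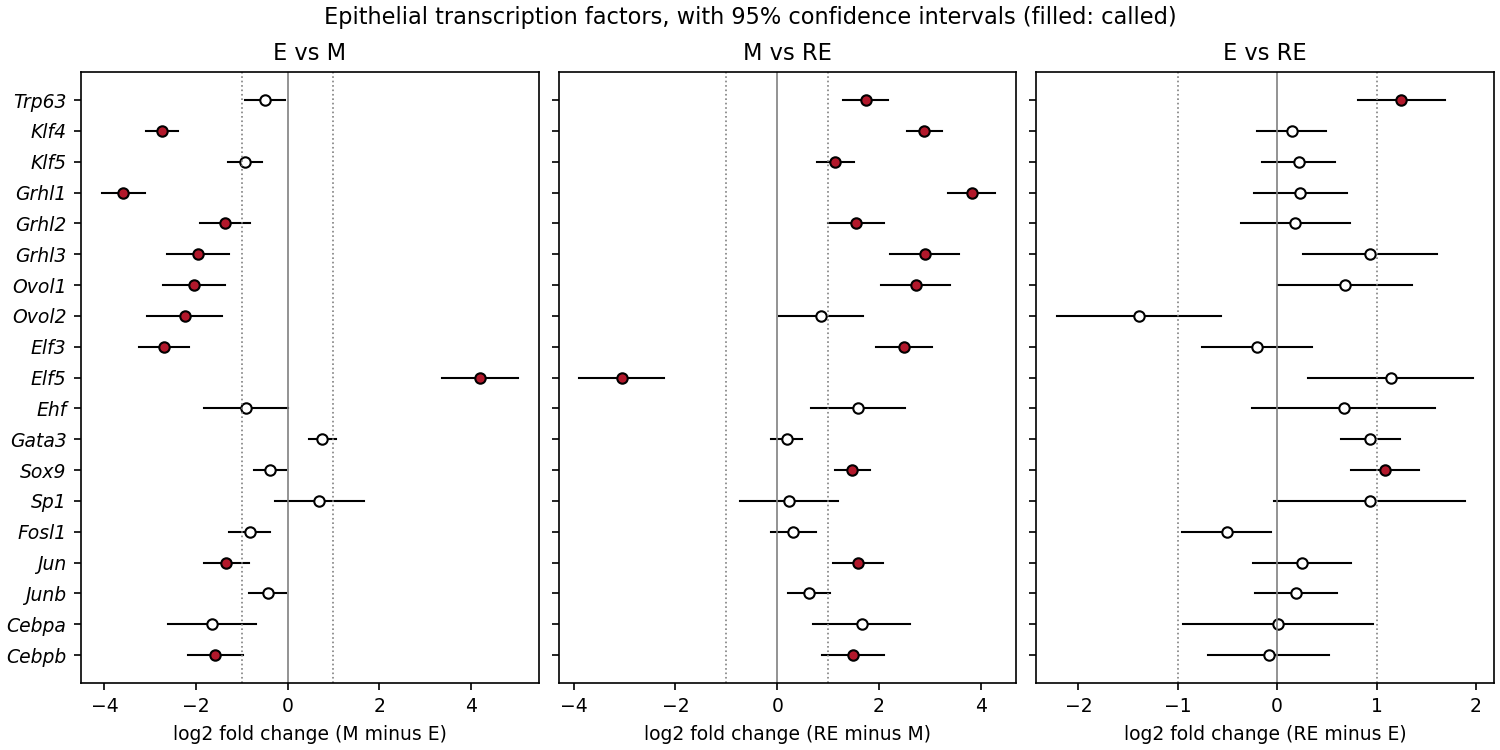
Log2 fold changes (points) of the 19 transcription factors tested, with 95% confidence intervals (lines), in the 3 comparisons, where positive values mean higher in the second-named cells. Filled points were called. The points of E vs. M lie mostly left of 0 and those of M vs. RE mostly right of 0, with *Elf5* on the other side in both.

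Markers of the cell types that the cultures could hold were followed beside the keratins. Without the keratins, the summed coverage of the luminal markers in the table was 492 to 571 ppm for E, 293 to 304 ppm for M and 338 to 339 ppm for RE cells, and that of the basal markers was 68.7 to 94.3, 135 to 156 and 245 to 279 ppm. In the list with the keratins, 1 of 12 luminal markers tested was called higher and 4 lower in E vs. M by limma. In M vs. RE, 1 was called higher and 3 lower, *Krt7* and *Krt8* among them. In E vs. RE, 0 were called higher (4 higher at an unadjusted p under 0.05) and 5 lower, *Krt7* and *Krt18* among them. Of 10 basal markers tested, 4 were called higher in E vs. M, *Krt14* and *Krt17* among them, and 1 lower (*Krt15*). In M vs. RE, 4 were called higher, *Krt15* among them, and 3 lower, *Krt14* and *Krt17* among them. In E vs. RE, 4 were called higher, none of them a keratin, and 0 lower (0 lower at an unadjusted p under 0.05). The shares of all genes called are those given with the keratins above. *Acta2*, the smooth muscle actin of myoepithelial cells, was at 0.252 and 0.680 ppm in the E libraries, 75.6 and 82.7 ppm in the M libraries and 4.04 and 3.83 ppm in the RE libraries. The other basal markers went both ways. *Tagln* was also highest in the M cells (means 2.23, 5.13 and 3.90 ppm in E, M and RE cells). *Myh11* had its lowest mean in the RE cells (0.588, 0.420 and 0.279 ppm), and *Oxtr* was at the floor in the E and RE cells. *Trp63* (mean 165 ppm) and *Mylk* (86.9 ppm) were highest in the RE cells and held most of the basal sum there. *Mylk* was at 6.77 and 8.56 ppm in the E libraries, 8.99 and 12.1 ppm in the M libraries and 96.4 and 77.5 ppm in the RE libraries. *Cnn1* was at 0.121 and 0.207, 0.201 and 0.171, and 1.65 and 1.79 ppm in the same order. It passed the filter through the RE cells alone, where it was highest, so that its calls, counted above, are a description. Most of the luminal sum was held by *Cldn3*, *Cldn4* and *Cldn7* (means 127, 195 and 124 ppm in E cells and 62.1, 80.0 and 49.5 ppm in RE cells). These were the luminal markers other than keratins called lower in E vs. RE. *Gata3* (means 48.9 and 93.8 ppm in E and RE cells) and *Esr1* (12.7 and 23.9 ppm) were among the 4 higher there at an unadjusted p under 0.05. Of the luminal markers, the milk protein gene *Wap* was at the floor in all 3 groups and the progesterone receptor gene *Pgr* in the E and RE cells, while the luminal keratins *Krt7*, *Krt8* and *Krt18* were abundant in all 6 libraries.

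Fibroblast markers summed to 136 to 165 ppm for E, 991 to 1139 ppm for M and 1069 to 1252 ppm for RE cells. *Thy1* was at the floor in all 3 groups and *Dcn* in the M cells. Of the 6 tested, 4 were called higher and 1 lower in E vs. M, 2 higher and 1 lower in M vs. RE and 6 higher in E vs. RE. For the shares of all genes called, see those given with the linkers. Endothelial markers summed to between 0.180 and 2.62 ppm in the 6 libraries, and *Cdh5* alone of them was called, higher in E vs. M and lower in M vs. RE, at 0 ppm in both E libraries, 2.33 and 2.07 ppm in the M libraries and 0.0423 and 0.0910 ppm in the RE libraries, having passed the filter through the M cells alone. Adipocyte markers summed to between 0.0561 and 9.03 ppm with *Adipoq* at the floor, and *Fabp4*, at 8.98 and 3.10, 0.0561 and 0.0243, and 2.22 and 1.87 ppm, was called lower in E vs. M and higher in M vs. RE. Of the immune markers, *Ptprc* and *Cd3e* were at the floor in all 3 groups and *Cd68* was between 5.17 and 9.18 ppm in every library. *Lyz2*, a gene of myeloid cells, was called higher in E vs. RE (1.64, adjusted p = 0.00947 by limma), at 0.191 and 0.130 ppm in the E libraries and 0.771 and 0.651 ppm in the RE libraries. It would not have passed the filter without the RE cells, where it was highest, so that this call is a description. The fibroblast sum was higher in the M and RE cells than in the E cells. *Col1a1* and *Pdgfrb* held most of the fibroblast sum (means 497 and 433 ppm in M cells, 236 and 750 ppm in RE cells). The part of fibroblast markers in the keratin results was not tested.

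For the 3 keratins with the widest range of group means, the genes with the nearest profile were found from the distance between log2 profiles centred on their mean over the 6 libraries, among 13892 genes. *Krt15*, with a range of 3.47 on the log2 scale, was nearest to *Ddit4l* (distance 0.346), *Cxcl1* (0.392) and *Fzd7* (0.445), where the median distance over all genes was 3.69. *Krt17* was nearest to *Arid3c* (0.501), *Cables1* (0.514) and *Gulo* (0.560), with a median of 2.94. All 3 passed the filter through the M cells alone, and *Cables1* and *Gulo* were at the floor in the E and RE cells. At such coverage the log2 values depend on the 0.1 ppm added. The same holds for *Krt15* and *Krt4*, which were at the floor in the M cells, and so for their ranges, distances and place among the widest. With 1 ppm added instead, the log2 fold change in M vs. RE was 1.08 for *Krt15* and 0.44 for *Krt4*, beside −2.12 for *Krt7*. For *Krt4* the nearest were *Zfp40* (0.460), *Sertad3* (0.470) and *Zfp667* (0.515), with a median of 2.52. *Ddit4l* was at 30.8 and 15.3 ppm in the E libraries, 4.73 and 4.36 ppm in the M libraries and 51.8 and 50.9 ppm in the RE libraries, and so lay far above *Krt15* in coverage while sharing its order of groups.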

How the data were processed

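RNA of EpH4 cells in 3 states (E, M and RE, 2 libraries each) was sequenced. Per the labels and methods, the authors mapped reads with Bowtie and TopHat2 and used edgeR. The deposited table gives 1 whole number per gene and library, without normalization, that behaves as coverage (signal) in bases and not as read counts (in each library 44.8% to 48.4% of the values from 1 to 400 are multiples of 50), so edgeR was not run. The step that summed bases per gene is not given in the sources used here. Columns were taken to libraries by name, and the labels give no batch.

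Coverage was scaled by unweighted TMM (30% of log ratios and 5% of levels trimmed, factors 0.871 to 1.12) to ppm. The filter asked for 500 bases or more in 2 or more libraries and left 13893 genes, for which log2(ppm + 0.1) was fitted with limma 3.58.1 (R 4.3.3) on all 6 libraries by group, with empirical Bayes moderation and a trend. A call required a change of over 1 on the log2 scale and an adjusted p (Benjamini-Hochberg) under 0.01. Sums and ratios were compared by two-sided exact permutation tests over libraries, adjusted over 18 tests. The fit was tested on simulated data. Depth is the total coverage in reads' worth of 50 bases, and the number of libraries (2 in each group) limits precision further.

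Lengths came from a newer mouse annotation and were matched for 93.4% of the genes tested. Protein sequences were not used here. All 10 keratins were named, other keratins where called, from 3 lists (linkers, other intermediate filaments and transcription factors) up to 4 called genes per comparison with the largest change and a mean log2 value of 2 or more, and the 3 nearest profiles of the 3 keratins with the widest range. *Elf5*, *Krt6a*, *Krt6b* and the single cell type markers were named after their values were seen. An item of the marker lists is not reported here. The keratins and lists were chosen with earlier results of these data known. Alternatives were other scalings, filters, pseudocounts, thresholds, lengths and weights, a fit of 2 groups, removal of GC and length trends, a replicate block and leaving out each library. The coding length and the sum without *Krt7* were added after the data were seen.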

Additional observations from a re-analysis of the deposited data

How the results depend on the processing

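With 2 libraries per group, leaving out 1 library assumes that the one left varies like the other groups. Over leave-one-out fits the keratins called ranged from 0 to 2 higher and 0 to 2 lower in E vs. M, 0 to 3 and 1 to 5 in M vs. RE, and 0 to 1 and 0 to 3 in E vs. RE, and the other keratins from 0 to 2, 0 to 5 and 0 to 3. Keratins lower in E vs. M were 0 with the filter in every library, a pseudocount of 1, only the 2 groups compared or array weights, and 2 at an adjusted p of 0.05. Keratins higher in M vs. RE were 0 with the filter in every library, 2 with a pseudocount of 0.025 or with GC and length trends removed with or without the block, and 3 with only the 2 groups, array weights or an adjusted p of 0.05. *Krt4* was among them in each of these settings with 2 or 3, and would not have passed the filter without the RE cells. *Krt5*, the third keratin where there were 3, passed it through the RE cells alone. In E vs. RE 1 was higher at an adjusted p of 0.05 and 1 lower with only the 2 groups. Other keratins called in E vs. M were 1 with library totals, the filter in every library or a pseudocount of 0.025, and 0 with a pseudocount of 1, only the 2 groups or array weights. In M vs. RE they were 1 with the filter in every library, 5 with only the 2 groups or an adjusted p of 0.05 and 6 with array weights, and in E vs. RE 1 without a filter or with it in every library and 0 with only the 2 groups. Signs turned in E vs. M for *Krt5* without the first E library (0.16) or the second M library (0.19; leave-one-out range −0.68 to 0.19), for *Krt7* with library totals (−0.13) and for *Krt80* without the second E library (0.17, range −0.55 to 0.17), and in E vs. RE for *Krt17* without the first E library (0.036) or the second RE library (0.016, range −0.64 to 0.036). The cause was not tested. Summed coverage in E vs. M was −0.035 with library totals, 0.37 without *Krt7* and 0.17 to 0.34 over leave-one-out fits, in M vs. RE −1.31 with library totals and −1.11 without *Krt7*, and in E vs. RE −0.74 without *Krt7*. Log2 differences of the basal to luminal ratio were 0.74 and 2.06 with the median transcript length and 0.54 and 1.91 with the coding length in M vs. RE and in the RE to E comparison, and those of the type I to type II ratio were 0.999 and 1.18 with the median length and 0.89 in M vs. RE with the coding length. The replicate numbers share only a label (correlations of same-numbered deviations 0.267, 0.058 and 0.116), and the replicate block called *Krt4* in M vs. RE (adjusted p = 0.00709 by limma), so that 2 keratins were higher, and changed no other call among the 10 keratins. Library totals moved the median of all genes by −0.29 in E vs. M and 0.18 in M vs. RE and the share of calls that were higher from 50.6% to 30.5%, 62.8% to 73.8% and 66.2% to 57.1%. Removing GC and length trends moved it to 56.9% in both M vs. RE and E vs. RE. In E vs. RE 1302 genes were called, and 525 with only the 2 groups. The counts over all genes without 1 library fell as low as 44 in E vs. RE (without the first RE library).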
